A study of Mus musculus with 2 samples.

Results

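Kinesins are motor proteins that hydrolyse ATP to move along microtubules, mostly towards the plus end. Mitotic kinesins build the spindle, move and align chromosomes and complete cytokinesis, and their genes are expressed mainly in dividing cells. Transport kinesins carry organelles, vesicles, RNA and ciliary cargo in dividing and resting cells alike, and in macrophages such traffic serves the positioning of lysosomes and endosomes and the delivery of membrane and secreted proteins.

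The kinesin family was examined in bone-marrow-derived macrophages of C57BL6 mice, on 1 Mouse Genome 430 2.0 array (Affymetrix) of cells treated with lipopolysaccharide (LPS), the bacterial outer membrane component sensed by Toll-like receptor 4, and 1 array of cells left untreated (control). Both cultures were grown in RPMI with fetal bovine serum and macrophage colony-stimulating factor, and neither the LPS dose nor the time of treatment is given in the labels. Nor do the labels say whether the cells came from 1 mouse or from a pool. With 1 array per condition there is no replicate and no test: each difference describes these 2 arrays, and their number limits the precision of every value.

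The members were chosen by gene symbol: Kif followed by a digit, Kifc, or the kinesin light chain symbols Klc1 to Klc4. They came to 110 probe sets of 44 genes, out of 34945 probe sets of 18193 genes that the platform annotation assigns to a single gene. No signal entered this choice, but the family was proposed with the ratios of these 2 arrays already known, so its ratios are a description. By their textbook roles 14 genes were classed as mitotic, 18 as transport (heavy and light chains) and 12 as other. Cenpe, the kinesin of the kinetochore, has a symbol outside the choice and appears below among the partners, and Klc2 was not analysed here.

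A signal is the authors' MAS5 value, a linear intensity per probe set. A gene is described by its brightest probe set, and it counts as measured where that signal was not below a floor set at the median of the array in question (26.7 for the LPS array, 35.1 for the control array) on 1 array or both. Of the 44 members 34 were measured, 27 of them on both arrays, 6 on the control array alone and 1 on the LPS array alone. A member measured on the control array alone could only come out lower, so counts are also given for those above both floors. Signals under the floor were raised to it, and the fold is then written as "at least". The ratio is log2 of LPS over control. The median measured gene had a ratio of -0.42, an array-wide shift, so counts are given as deposited and again after this shift was removed (median-centred).

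The cells carried macrophage markers on both arrays. All 8 listed markers were above both floors, with summed signals of 50779 on the LPS array and 43552 on the control array. Of the 6 bone marrow progenitor markers 5 were under both floors, and the summed signals were 108 on the LPS array and 125 on the control array. The other marker, Kit, had 10.7 on the LPS array, under the floor, and 39.5 on the control array, just above it. For T and NK cells the sums were 50.4 on the LPS array and 40.2 on the control array, and for dendritic cells 98.2 (LPS) and 75.0 (control). For erythroid cells they were 56.8 (LPS) and 38.3 (control), for B cells 70.8 (LPS) and 168 (control), for stromal cells 242 (LPS) and 79.7 (control), and for neutrophils 682 (LPS) and 439 (control). The B cell difference came mainly from Cd79b (35.3 on the LPS array, 110 on the control array), while Cd79a, Ms4a1 and Pax5 were under both floors. The stromal difference came from Pdgfrb (170 on the LPS array, 3.97 on the control array). Their part in the kinesin ratios was not tested.

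Mitotic kinesins were lower on the LPS array, in most cases by 5-fold or more. Of 11 measured members 9 were at least 2-fold lower and 0 higher as deposited, and the counts were the same after median centring. Over all 11722 measured genes, 26.2% were at least 2-fold lower and 8.22% at least 2-fold higher as deposited, and 15.3% and 13.1% after median centring. The median ratio of the measured mitotic members was -2.94, or -2.52 after centring. Above both floors on the 2 arrays there were 9 mitotic members, of which 8 were at least 2-fold lower. Of all 9822 genes above both floors 2624 were lower by as much. In a bulk sample fewer dividing cells and less RNA per dividing cell cannot be told apart.

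**Figure D1:**
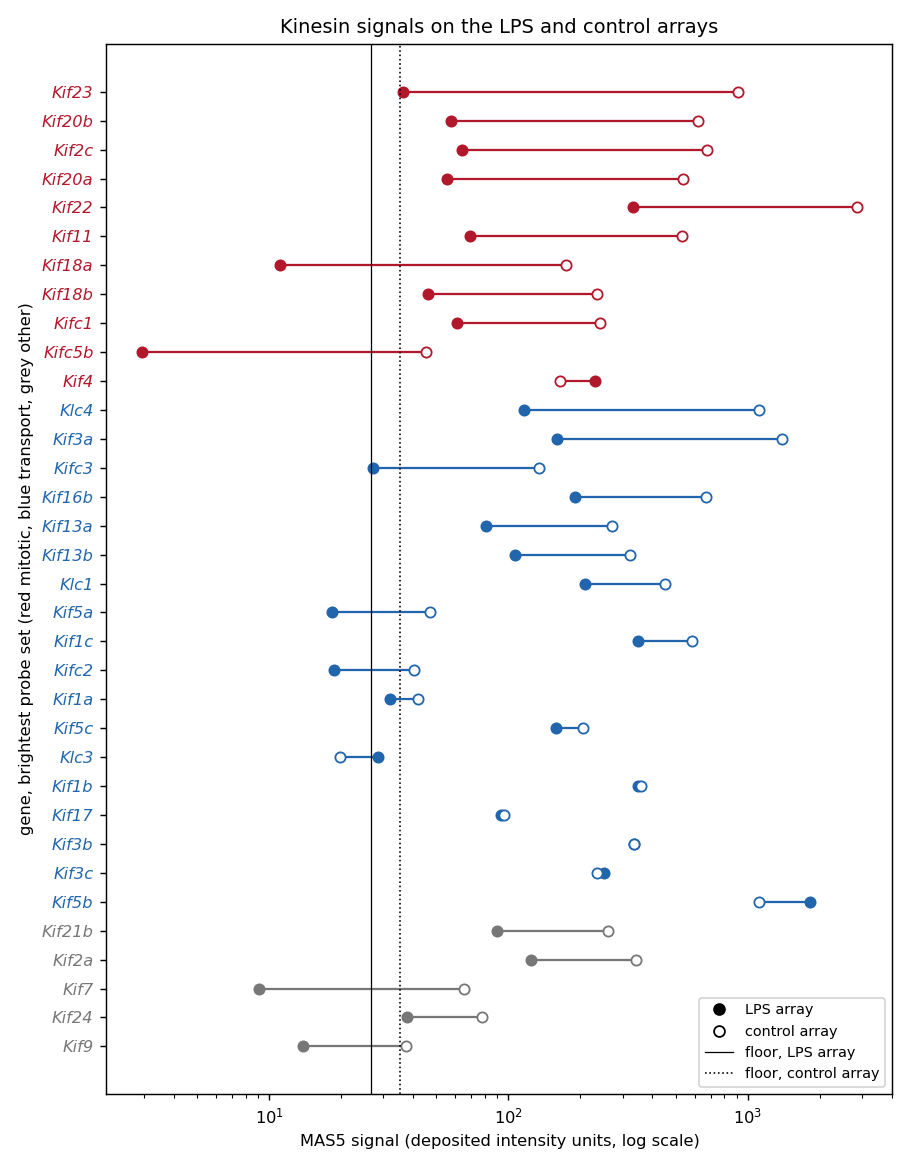
MAS5 signal (log axis) of the brightest probe set of each of the 34 measured kinesin genes on the LPS array (filled) and the control array (open), with each array's floor as a vertical line (26.7 for LPS, 35.1 for control). For 10 of the 11 mitotic genes (red) the filled point lies left of the open one, and Kif4 is the exception; the transport genes (blue) range from Klc4, far lower on the LPS array, to Kif5b, higher on it.

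Kinesins of the central spindle and the cell's final cleavage included Kif23 and Kif20b, the members with the 2 lowest ratios by brightest probe set. Kif23, the motor subunit of the centralspindlin complex, had a signal of 36.1 on the LPS array and 910 on the control array, 25.2-fold lower (log2 ratio -4.66). Its LPS signal lay just above the floor. A second Kif23 probe set, at 15.0 on the LPS array (under the floor) and 321 on the control array, was at least 12.0-fold lower. Kif20b, which acts in the completion of cytokinesis, had signals of 57.4 on the LPS array and 620 on the control array, 10.8-fold lower. A second Kif20b probe set, at 17.4 on the LPS array (under the floor) and 169 on the control array, was at least 6.35-fold lower. Its other probe sets were under both floors. Kif20a, which brings the chromosomal passenger complex to the spindle midzone, was read by 1 probe set, with 55.6 on the LPS array and 538 on the control array, 9.67-fold lower. All 3 of these genes were far below their control signal, by more than the array-wide shift. Kif14, another cytokinesis kinesin, had 1.53 on the LPS array and 6.99 on the control array, under both floors, and has no fold.

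Spindle-assembly and chromosome kinesins followed the same direction. Kif11, which slides antiparallel microtubules apart to make the spindle bipolar, had signals of 69.0 on the LPS array and 531 on the control array, 7.70-fold lower. Its 3 probe sets were close, with ratios from -2.94 to -2.46. Kif22, a chromosome-arm motor, had signals of 332 on the LPS array and 2859 on the control array, 8.62-fold lower, and its 3 probe sets ranged from -3.28 to -2.75. The brightest Kif22 probe set has the suffix x and another the suffix s, types whose probes can match other transcripts, and the brightest of Kif11 has the suffix a. Those used for Kif20a and Kif20b have the suffix a as well. The plain probe sets had -2.75 for Kif22, and -2.71 and -2.46 for Kif11. Kif2c, which depolymerises microtubules at centromeres, had signals of 64.0 on the LPS array and 677 on the control array, 10.6-fold lower. Its probe sets were less uniform: the 3 above both floors ranged from -3.40 to -1.47, and the brightest again has the suffix x. The plain Kif2c probe set with signals of 56.8 on the LPS array and 323 on the control array had a ratio of -2.51. A further, dim one, with 21.9 on the LPS array (under the floor) and 37.4 on the control array, gave a bound of at least 1.40-fold lower.

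Among the regulators of microtubule plus ends, Kif18a, which dampens chromosome oscillations at metaphase, had signals of 11.1 on the LPS array, under the floor, and 174 on the control array, at least 6.52-fold lower. Kif18b, which limits astral microtubule length, had signals of 46.0 on the LPS array and 234 on the control array, 5.08-fold lower. The minus-end motor gene Kifc1, which focuses spindle poles, had signals of 61.2 on the LPS array and 241 on the control array, 3.93-fold lower. Kifc5b, a close copy of Kifc1, had signals of 2.94 on the LPS array, under the floor, and 45.2 on the control array, at least 1.70-fold lower. The probe set used for Kifc1 is of a type (suffix s) that can match several transcripts, so these 2 genes are not read apart with certainty.

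Kif4 went against the other measured mitotic kinesins. This chromokinesin, which with Prc1 sets the length of the central spindle, had signals of 229 on the LPS array and 165 on the control array, 1.39-fold higher, and 1.86-fold higher after median centring. It was read by a single probe set, so no second reading is at hand. Under loess scaling its ratio was 1.19, past 2-fold. Kif15, a spindle motor that can substitute for Kif11, had signals of 23.4 on the LPS array and 14.7 on the control array, under both floors, and Kif2b, a centromere and spindle kinesin, had 3.66 on the LPS array and 4.14 on the control array, also under both.

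**Figure D2:**
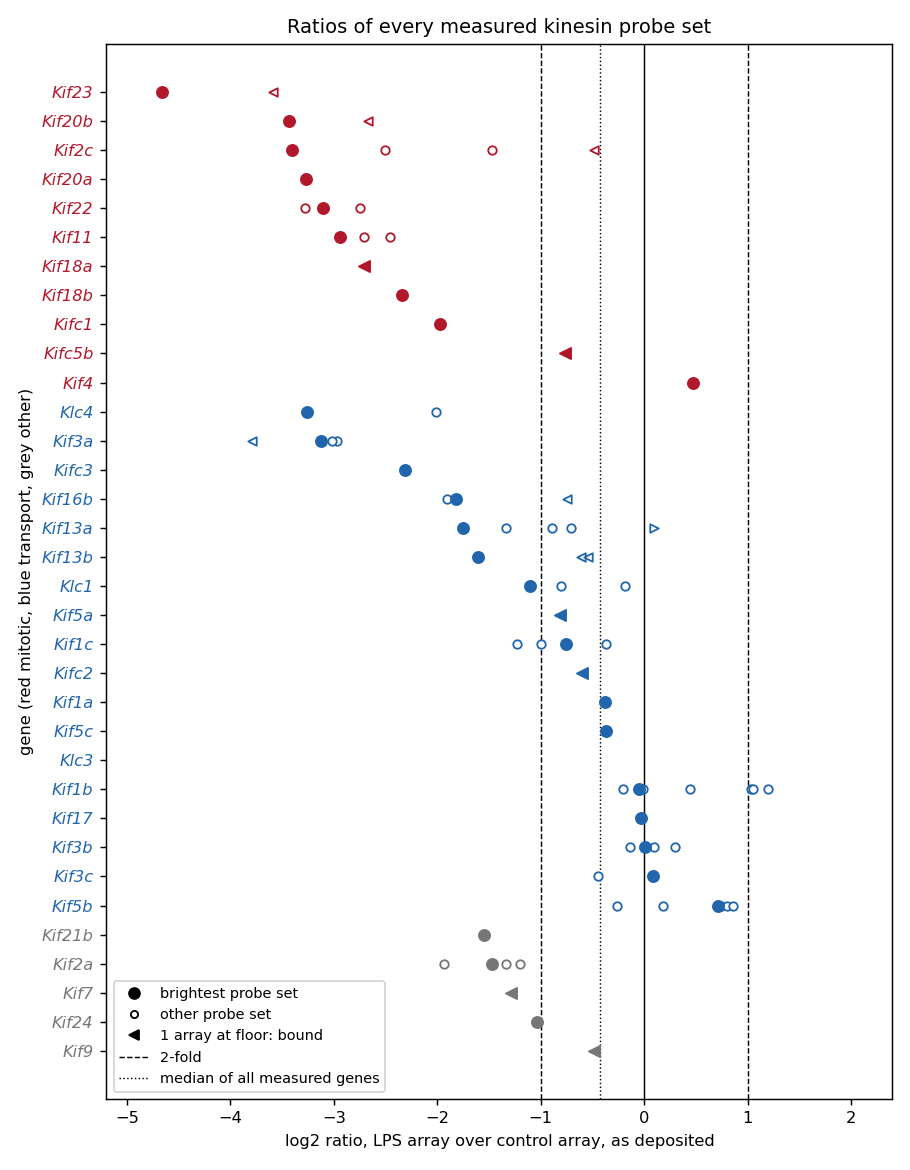
Log2 ratio (LPS array over control array, as deposited) of every measured probe set of each kinesin gene; large filled points are the brightest probe set, small open points the others, triangles bounds where 1 array was under the floor, and readings without a fold, such as Klc3, have no point. The red (mitotic) points lie left of the 2-fold line except Kifc5b, Kif4 and 1 bound of Kif2c at -0.49, and blue genes (transport) spread on both sides of the dotted line at -0.42, the median of all measured genes.

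Partners of the mitotic kinesins and markers of cycling cells were lower on the same array. Of 15 measured partners, 12 were at least 2-fold lower and 0 higher, with a median ratio of -2.06, beside 26.2% lower and 8.22% higher over all measured genes. The counts were the same after median centring, beside 15.3% lower and 13.1% higher over all measured genes. The lowest were the contractile ring gene Anln (11.3-fold), Ect2, which activates RhoA at the cleavage site (7.19-fold), the chromosomal passenger kinase gene Aurkb (6.58-fold) and Hmmr, a spindle-associated gene (6.37-fold). Racgap1, the other subunit of centralspindlin, was 4.41-fold lower, and Prc1, the partner of Kif4, had signals of 249 on the LPS array and 734 on the control array, 2.95-fold lower. Tpx2, a spindle assembly factor that recruits Kif11, had signals of 423 on the LPS array and 495 on the control array, a ratio of -0.22. Cenpe had signals of 313 on the LPS array and 586 on the control array, a ratio of -0.90. Of 9 measured proliferation markers 8 were at least 2-fold lower, as deposited and after centring, beside the same shares of all measured genes. Among them were Cdc20 (10.5-fold), Bub1 (6.21-fold), Ccna2 (5.14-fold) and Ccnb2 (3.98-fold). Summed signals over the list were 7049 on the LPS array and 18385 on the control array. The exception was Pcna, lower by less than 2-fold, at a ratio of -0.52. These 2 lists were chosen with earlier results of these arrays known.

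The promoters of the mitotic kinesins were searched for short sequence elements. Short elements are known from genes expressed late in the cell cycle: the cell cycle genes homology region (CHR), which is bound by the DREAM and MuvB complexes, and the CCAAT box, which is bound by NF-Y. RefSeq promoter windows on GRCm38.p6 ran from 250 bases before to 50 after the annotated start. Windows of 36 of the 44 members were searched, 13 of them mitotic and 13 transport. Kif20a, Kif5a, Kif5b, Kif13b, Kifc2, Kifc3, Kif21b and Kif28 had no window in the search. Member windows on 1 chromosome were left out of this search, while the shares over all windows kept that chromosome. Members without a window of full length could not be searched either. The CHR letters TTTGAA, on either strand, occurred in 11 of 13 mitotic promoters, 84.6%, against 1 of 15 promoters of the 13 transport members, 6.67%, and 17.9% of all 32851 windows. CCAAT, on either strand, occurred in 9 of 13 mitotic promoters (69.2%), against 6 of 15 transport promoters (40.0%) and 37.4% of all windows. An E2F-type word, GCGGGAA on either strand, occurred in 0 mitotic and 0 transport promoters and in 4.60% of all windows. In the members' windows no CHR match shared a base with a CCAAT match. The mitotic windows were searched whatever the signal of the gene. They include Kif14 and Kif15, under both floors and with CHR letters, and Kif2b, under both floors and without CHR letters. Some transport windows of the same gene overlap. The mitotic windows of Kifc1 and Kifc5b, close copies, share long runs of letters and count separately, each with both elements. A match is a description of letters, not of binding.

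The CHR letters lay close to the annotated start. In 9 of 13 mitotic promoters (69.2%) a match began within 30 bases of the start, against 0 of 15 transport promoters and 3.14% of all windows. The 9 include both Kifc1 and Kifc5b, and this distance was set after the positions were seen. The windows below show Kif23, Kif11 and Kif22, which were far lower on the LPS array and carry both elements, Kif4, which was not lower and carries both as well, and Kif18a, which was at least 6.52-fold lower and carries neither. Capitals mark the CHR letters (TTTGAA, or TTCAAA where it reads on the other strand) and the CCAAT letters (CCAAT or ATTGG).

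The promoter windows, written 5′ to 3′ along the gene (RefSeq, GRCm38.p6), are the following.
Kif23, chr9:61946750-61947049, minus strand: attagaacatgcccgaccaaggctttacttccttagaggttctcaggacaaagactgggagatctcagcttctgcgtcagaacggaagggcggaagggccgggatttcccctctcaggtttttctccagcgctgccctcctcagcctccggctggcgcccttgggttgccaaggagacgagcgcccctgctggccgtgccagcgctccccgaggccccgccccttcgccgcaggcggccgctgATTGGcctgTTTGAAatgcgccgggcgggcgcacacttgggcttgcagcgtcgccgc
Kif11, chr19:37376132-37376431, plus strand: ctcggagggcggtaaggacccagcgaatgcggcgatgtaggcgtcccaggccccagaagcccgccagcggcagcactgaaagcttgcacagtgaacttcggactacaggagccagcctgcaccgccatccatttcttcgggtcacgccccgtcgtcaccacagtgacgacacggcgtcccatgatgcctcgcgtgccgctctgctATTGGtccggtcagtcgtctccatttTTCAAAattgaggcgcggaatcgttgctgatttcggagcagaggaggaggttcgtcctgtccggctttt
Kif22, chr7:127042371-127042670, minus strand: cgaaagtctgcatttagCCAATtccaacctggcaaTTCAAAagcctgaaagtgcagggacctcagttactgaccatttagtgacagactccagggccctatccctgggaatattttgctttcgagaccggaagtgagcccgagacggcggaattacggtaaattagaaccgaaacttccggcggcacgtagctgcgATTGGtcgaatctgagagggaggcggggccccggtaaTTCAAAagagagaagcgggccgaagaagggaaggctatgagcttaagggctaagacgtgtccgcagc
Kif4, chrX:100625815-100626114, plus strand: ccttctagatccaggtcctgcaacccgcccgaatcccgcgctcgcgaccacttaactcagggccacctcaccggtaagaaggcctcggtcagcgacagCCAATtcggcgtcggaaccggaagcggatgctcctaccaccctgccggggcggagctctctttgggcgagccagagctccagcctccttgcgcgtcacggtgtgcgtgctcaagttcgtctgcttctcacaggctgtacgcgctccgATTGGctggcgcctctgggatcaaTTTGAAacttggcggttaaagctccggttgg
Kif18a, chr2:109280488-109280787, plus strand: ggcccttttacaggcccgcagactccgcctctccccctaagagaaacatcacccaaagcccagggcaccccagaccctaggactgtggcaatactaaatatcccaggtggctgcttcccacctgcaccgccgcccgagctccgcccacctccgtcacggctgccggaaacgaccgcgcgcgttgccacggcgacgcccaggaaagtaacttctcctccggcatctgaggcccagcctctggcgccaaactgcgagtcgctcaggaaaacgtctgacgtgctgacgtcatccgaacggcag

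In Kif11 the CCAAT match began at position -45 and the CHR match at -19, with the annotated start as base 1 and the base before it as -1, and in Kif22 the nearer pair began at -54 (CCAAT) and -17 (CHR). In Kif23 the pair stood close together around the start, with the CCAAT letters beginning at -7 and the CHR letters at base 3. In Kif4 the CHR letters began at base 20, so the letters alone do not separate it from the genes that were lower.

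**Figure D3:**
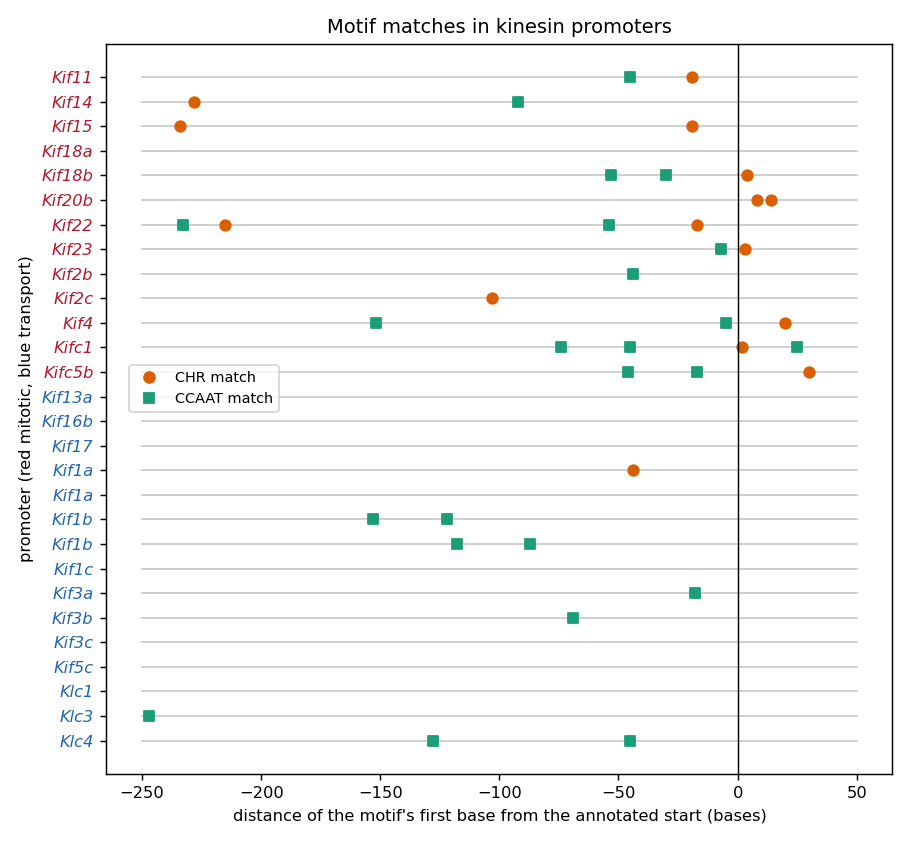
Positions of CHR (circles) and CCAAT (squares) matches in the promoter windows of mitotic (red) and transport (blue) kinesins, as the distance in bases of the first base from the annotated start. Circles stand in 11 of the 13 red rows, 9 of them with one within 30 bases of the start, and in 1 of the 15 blue rows.

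Transport kinesins were divided. Of 18 measured members 7 were at least 2-fold lower, 0 higher and 11 neither as deposited, beside 26.2% lower and 8.22% higher over all measured genes, with a median ratio of -0.68. The 11 include Kif5a and Kifc2, whose folds are bounds, and Klc3, which has no fold, so these genes are not placed within 2-fold. After median centring 6 were lower and 1 higher, with a median of -0.25, beside 15.3% lower and 13.1% higher over all measured genes. Above both floors there were 15, of which 7 were at least 2-fold lower, beside 2624 of all 9822 genes above both floors. The median of the mitotic members was -2.94 and that of the transport members -0.68, beside -0.42 over all measured genes. The difference between the classes was not tested, for want of replicates.

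**Figure D4:**
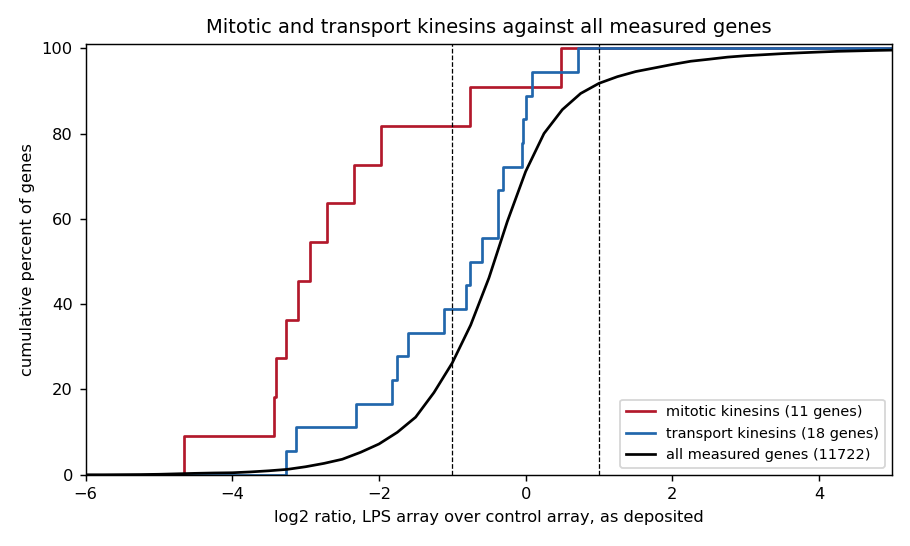
Cumulative percent of genes by log2 ratio (LPS array over control array, as deposited) for 11 measured mitotic kinesins (red), 18 measured transport kinesins (blue) and all 11722 measured genes (black), with dashed lines at 2-fold; signals under the floor were set to it. The red line lies far left, with its median at -2.94, while the medians are -0.68 for the blue line and -0.42 for the black one. No transport kinesin had a ratio above 0.71 (Kif5b), whereas the black line goes on to higher ratios.

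Within conventional kinesin (kinesin-1), a pair of heavy chains joined to a pair of light chains, Kif5b was the heavy chain with a ratio above 0. Kif5b, the heavy chain expressed in most tissues, had signals of 1822 on the LPS array and 1114 on the control array, 1.64-fold higher, and 2.19-fold higher after median centring. Of its 6 probe sets 5 had ratios from 0.19 to 0.86, and the dimmest, at 30.2 on the LPS array and 36.4 on the control array, had -0.27. Of the neuronal heavy chain genes, Kif5c had signals of 159 on the LPS array and 206 on the control array, a ratio of -0.37 that changed sign under quantile, median and loess scaling, and Kif5a had 18.4, under the floor, on the LPS array and 46.8 on the control array, at least 1.76-fold lower.

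The light chain Klc4, a cargo-binding subunit, had signals of 116 on the LPS array and 1117 on the control array, 9.59-fold lower. Its other probe set, with 75.9 on the LPS array and 307 on the control array, had a ratio of -2.01, so both were past 2-fold. Klc1, the best-studied light chain, had signals of 210 on the LPS array and 452 on the control array, 2.16-fold lower, with 3 probe sets from -1.11 to -0.19 and a centred ratio of -0.69. Klc3 stood at 28.4 on the LPS array and at 19.8, under the floor, on the control array and has no fold. The Klc4 window is shown because this member was as low as the mitotic ones and carries CCAAT letters (capitals) but no CHR match.
Klc4, chr17:46646031-46646330, minus strand: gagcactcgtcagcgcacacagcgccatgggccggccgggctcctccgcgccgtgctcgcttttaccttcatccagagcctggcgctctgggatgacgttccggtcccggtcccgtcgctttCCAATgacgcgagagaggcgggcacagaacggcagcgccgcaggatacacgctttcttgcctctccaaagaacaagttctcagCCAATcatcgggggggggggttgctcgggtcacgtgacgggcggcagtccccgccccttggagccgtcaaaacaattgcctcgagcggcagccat

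The subunits of heterotrimeric kinesin-2 also parted. This motor, made of Kif3a, Kif3b and the adaptor Kifap3, moves ciliary and vesicular cargo. Kif3a had signals of 159 on the LPS array and 1393 on the control array, 8.74-fold lower. Its 3 probe sets above both floors agreed within -3.13 to -2.97, and the fourth, at 16.9 on the LPS array (under the floor) and 370 on the control array, was at least 13.9-fold lower. Kif3b had nearly the same signal on both arrays, 336 for LPS and 334 for control, with 4 probe sets from -0.13 to 0.30. Kif3c, which can replace Kif3b as the partner of Kif3a, had signals of 250 on the LPS array and 235 on the control array. Kifap3, not a member by its symbol, had 189 on the LPS array and 584 on the control array, 3.08-fold lower. Kif17, a kinesin-2 that works as a homodimer, had 93.4 on the LPS array and 95.5 on the control array.

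Of the kinesin-3 motors, Kif16b, Kif13a and Kif13b were lower by more than 3-fold. Kif16b, which moves early endosomes, had signals of 189 on the LPS array and 669 on the control array, 3.54-fold lower, with a second probe set at -1.91. Kif13a, a motor of recycling endosomes, had 80.5 on the LPS array and 272 on the control array, 3.37-fold lower, and its 4 probe sets above both floors ranged from -1.75 to -0.71. A further, dim Kif13a probe set went the other way. It had 37.3 on the LPS array and 33.3, under the floor, on the control array, at least 1.06-fold higher. Kif13b, which binds the scaffold protein Dlg1, had 106 on the LPS array and 324 on the control array, 3.05-fold lower. When a gene was read by the median ratio over its probe sets, Kif13a (-0.89) and Klc1 (-0.81) were no longer past 2-fold. Kif13b was not counted there either, but its median is a bound (at least 1.53-fold lower, with the LPS signal under the floor), which does not place it within 2-fold. The count of transport members lower was then 4.

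The Kif1 genes, of the same subfamily, lay within 2-fold by their brightest probe sets. Kif1c, which in human macrophages governs the turnover of podosomes, had signals of 348 on the LPS array and 587 on the control array, a ratio of -0.75, with 4 probe sets from -1.23 to -0.37. Kif1b, a motor of mitochondria and synaptic vesicle precursors, had 347 on the LPS array and 358 on the control array by its brightest probe set. Its 7 probe sets did not read alike, with ratios from -0.21 to 1.20, the widest spread (SD 0.60) among the transport members with more than 2 probe sets above both floors. One of them had 289 on the LPS array and 139 on the control array, a ratio of 1.05. Another had 100 on the LPS array and 43.6 on the control array (ratio 1.20). A further one had 91.6 on the LPS array and 44.9 on the control array (ratio 1.03), so these too were past 2-fold. The remaining probe sets, from -0.21 to 0.44, lay within 2-fold. Which Kif1b transcript each probe set reads was not determined here. Kif1a, a neuronal motor, had 32.1 on the LPS array and 41.9 on the control array, close to the floors.

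Among the minus-end motors of the transport class, Kifc3, which acts in apical transport in epithelia, had signals of 27 on the LPS array, just above the floor, and 134 on the control array, 4.97-fold lower. Kifc2, a neuronal motor, had 18.7, under the floor, on the LPS array and 40.4 on the control array, at least 1.52-fold lower.

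Members outside both classes were lower or not measured. Kif21b, a regulator of microtubule growth, had signals of 89.2 on the LPS array and 261 on the control array, 2.92-fold lower. Kif2a, a depolymerase of spindle poles and neurons, had 124 on the LPS array and 343 on the control array, 2.77-fold lower, with 4 probe sets from -1.94 to -1.20. Kif7, which acts in Hedgehog signalling at the cilium tip, had 9.06, under the floor, on the LPS array and 65 on the control array, at least 2.44-fold lower. Kif24, a centriolar depolymerase that restrains cilium formation, had 37.8 on the LPS array and 77.7 on the control array, 2.06-fold lower, and 1.53-fold lower after median centring. Kif9, a gene of motile cilia, had 13.9, under the floor, on the LPS array and 37.3 on the control array. In all, 4 of these 5 measured members were at least 2-fold lower as deposited and 2 after centring, beside 26.2% and 15.3% of all measured genes. Kif6, Kif12, Kif21a, Kif26a, Kif26b, Kif27 and Kif28 were under both floors.

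Adaptors of transport kinesins lay nearer to the array-wide shift. Of 13 measured adaptors and regulators, 4 were at least 2-fold lower and 1 higher, with a median ratio of -0.52, beside 26.2% lower and 8.22% higher over all measured genes. After median centring 2 were lower and 1 higher, beside 15.3% and 13.1% over all measured genes. The lower ones were Madd, which links Kif1 motors to Rab3 vesicles (3.72-fold), Kifap3, the protrudin gene Zfyve27 (2.66-fold), and Plekhm2, which joins kinesin-1 to lysosomes (2.55-fold). Ranbp2, a nuclear pore gene whose product binds Kif5 heavy chains, had signals of 3490 on the LPS array and 960 on the control array, 3.64-fold higher. This list, too, was chosen with earlier results of these arrays known.

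**Figure D5:**
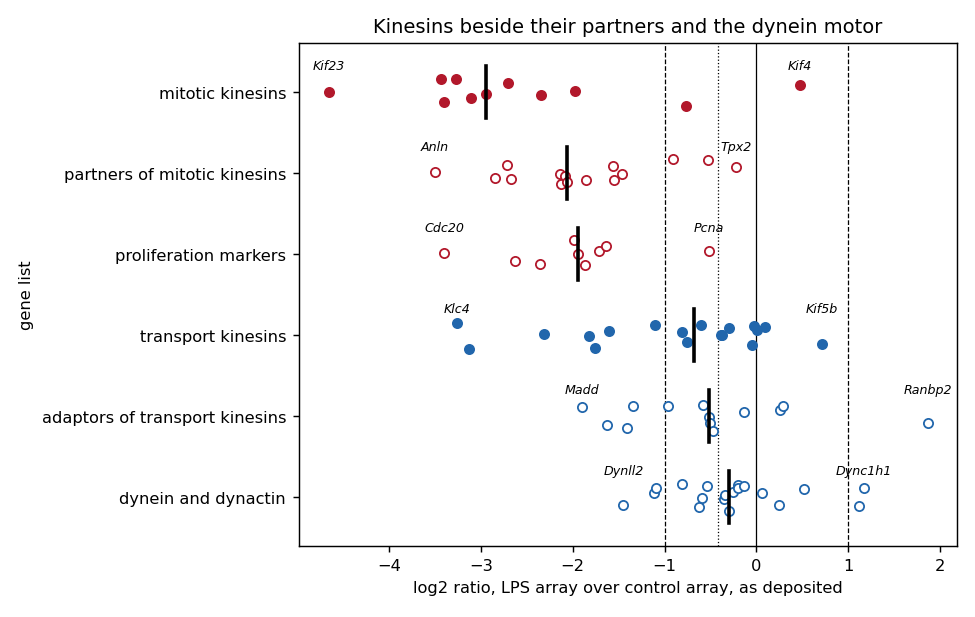
Log2 ratio (LPS array over control array, as deposited) of each measured gene in 6 lists, with a black bar at the list median, dashed lines at 2-fold and a dotted line at the median of all measured genes (-0.42); vertical scatter has no meaning. The medians of mitotic kinesins (-2.94), their partners (-2.06) and proliferation markers (-1.94) lie below those of transport kinesins (-0.68), their adaptors (-0.52) and dynein and dynactin (-0.30).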

How the data were processed

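The authors deposited a linear intensity for each probe set, and the submitters' processing notes name MAS5 as the method. Its version and scaling target were not given in the sources used here, and detection calls were not used. Arrays were grouped by title. Of 45101 probe sets 64 were array controls, 34945 had 1 gene, 932 had several and 9160 were not listed with a gene. Symbols were checked against RefSeq (GRCm38.p6), which changed 0, and matched all 44 members.

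Floors were the 50th percentile of each array over probe sets other than controls. Each gene took its brightest probe set, by mean log2 signal over both arrays. No p-value was computed. As a technical gauge, the median SD of log2 ratios over probe sets of a gene was 0.28 (4494 genes). All measured members are named, and of other lists up to 4 with the largest ratios and 1 against the list, plus partners named beside a member. Members and lists were chosen with earlier results of these data known. Alternatives are in the closing section. Python 3.11.15 with pandas 2.3.3, numpy 2.4.6 and statsmodels 0.14.6 was used, and the steps were tested on simulated arrays.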

Additional observations from a re-analysis of the deposited data

How the results depend on the processing

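The count of 9 mitotic kinesins lower stayed between 7 and 10 under the 12 alternatives (a floor percentile of 35 or of 65, a pseudocount of 16 without floor, quantile normalization, median centring, loess with a span of 0.4, the median over probe sets, only plain ones (no s, x or a suffix), 3-fold, 1.5-fold, wider classes with Kif2a as mitotic and Kif21a and Kif21b as transport, and, added after the data were seen, genes above both floors alone). The mitotic median of -2.94 was -2.47 with quantile normalization, -2.52 with median centring, -2.23 with loess and -2.51 with plain probe sets alone. The transport median of -0.68 was -0.29, -0.25 and -0.25 with the first 3 of these. The first 3 remove most or all of the array-wide shift. Plain probe sets alone leave 9 mitotic members. Loess put 1 mitotic member, Kif4, at least 2-fold higher. Median centring and the 1.5-fold threshold each put 1 transport member, Kif5b, on the higher side. The 7 transport members lower became 4 with loess and 4 with the median of the probe sets. They became 9 with the floor percentile of 35, 10 at 1.5-fold and 8 of 19 with the wider classes. Under the remaining alternatives the count was 6 or 7. With loess the 4 were Klc4, Kif3a, Kifc3 and Kif16b, and the cause was not tested. With the median, Kif13b is a bound. No member past 2-fold changed direction. Among the other members, the ratios of Kif17, Kif1a, Kif1b, Kif5c, Kif3c and Klc3 changed sign under at least 1 alternative. LPS signals under the floor bound the folds of Kif18a, Kif7, Kifc5b, Kif5a, Kifc2 and Kif9, and 1 array per condition leaves no measure of replicate error.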

Other observations

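Cytoplasmic dynein, the motor that runs towards microtubule minus ends, and its cofactor dynactin had a median ratio close to that of all measured genes (-0.42). Of 19 measured genes 2 were higher by 2-fold or more and 3 were lower by as much, beside 8.22% higher and 26.2% lower over all measured genes. The median log2 ratio (LPS over control) was -0.30, and 2 were higher and 1 lower after median centring, beside 13.1% and 15.3% over all measured genes. The heavy chain gene Dync1h1 had signals of 2835 on the LPS array and 1261 on the control array, 2.25-fold higher, and the intermediate chain gene Dync1i2 4583 on the LPS array and 2116 on the control array, 2.17-fold higher. The light chain gene Dynll2 had 411 on the LPS array and 1122 on the control array, 2.73-fold lower. Dctn6, a dynactin subunit, and Dynlt1f, a light chain gene of a family with close copies, were 2.17-fold and 2.13-fold lower.

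Some genes whose products work together stood apart on these arrays. Kif3a was 8.74-fold lower on the LPS array while the signals of its partner Kif3b were 336 on the LPS array and 334 on the control array. Klc4 was 9.59-fold lower while Kif5b was 1.64-fold higher. Kif4 was 1.39-fold higher while its partner Prc1 was 2.95-fold lower. Each of these pairs was singled out after its values were seen, and none has a replicate.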
